A study of Mus musculus with 12 samples.

Results

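The comparison described here set C2C12 cells carrying siRNA against Fbxl2 beside control cells, both at 48 h of differentiation. The members were chosen by the library labels alone: 3 Fbxl2 siRNA libraries and 3 control libraries, 6 of the 12 RNA sequencing libraries of the series, with all genes considered. C2C12 is an established mouse myoblast line, here labelled C57BL/6 and used at passages 5 to 10. Cells grew in DMEM with 10% fetal bovine serum and, once confluent, were moved to DMEM with 2% horse serum, in which myoblasts leave the cell cycle and fuse into myotubes. The 6 libraries shared this medium and time. The other 6 came from undifferentiated myoblasts still in growth medium (0 h) and from cells given TNF (10 ng/ml) through 48 h of differentiation, 3 libraries each. The siRNA sequence, its number, its dose and the day of transfection are not stated in any source read here. Nor do the labels say whether the control cells received a non-targeting siRNA, so silencing of Fbxl2 and exposure to siRNA and transfection cannot be told apart. No label says that the libraries of a group came from separate cultures, so the p-values measure how far these libraries scatter, part of which can be technical.

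FBXL2 is an F-box protein. F-box proteins are the substrate receptors of SCF ubiquitin ligases, in which SKP1 links the receptor to the CUL1 scaffold and RBX1 recruits the enzyme that carries ubiquitin. The leucine-rich repeats of FBXL2 bind proteins that the ligase marks for destruction, and reported substrates include D-type cyclins, Aurora B, FOXM1, regulatory subunits of phosphoinositide 3-kinase and the TRAF adaptors of TNF receptor signalling. In a differentiating myoblast, MYOD1 and MYOG switch on the genes of fusion and contraction while the cyclin-driven programme of division is shut down. The series asks how TNF acts on myogenesis through Fbxl2, and the siRNA arm addresses what differs when Fbxl2 RNA is lowered. The design of the series names TNF for its own group only, and the siRNA label names none, but a treatment note common to every library mentions TNF for treated cells; the siRNA group is taken here as given none.

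Library totals ran from 26416978 to 32917763 counts. Of 21232 gene symbols, 12736 had enough counts to test, and levels are given below as CPM, counts per 1000000 of a library total scaled for composition. In a principal component analysis of the 6 libraries, the first component held 81.9% of the variance and separated the groups. The siRNA libraries differed more among themselves than the control libraries did: the chi-square of counts per degree of freedom between pairs was 3.91 to 10.3 within the siRNA group and 1.60 to 3.05 within the control group, and siRNA library B was the farther from both others.

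Fbxl2 RNA was lower in every siRNA library than in any control library and was far from absent. Fbxl2 (minus strand, chr9:113963637-114046191 in GRCm38) stood at 31.9, 32.6 and 34.4 CPM in control libraries A, B and C and at 22.5, 20.6 and 23.6 CPM in siRNA libraries A, B and C. The siRNA mean was 67.5% of the control mean (95% interval 60.9% to 74.8%), a log2 fold change of -0.57 ± 0.064 (SE) with an adjusted p of 1.7e-07 by edgeR's quasi-likelihood test with Benjamini-Hochberg adjustment. RNA left in the cells, not FBXL2 protein, was measured.

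Many genes differed between the groups, most of them by little. At an adjusted p under 0.05, 4346 of 12736 genes were higher in the siRNA libraries (34.1%) and 3796 were lower (29.8%), and these shares are the background for each count of list members below. The median log2 fold change over all genes tested was 0.03, and 5430 of the 8142 genes called changed by less than 1.5-fold. A change of 2-fold or more was called for 641 genes upward (5.03%) and 646 downward (5.07%), and of 4-fold or more for 115 each way. Groups without overlap were common: of the 12736 genes, 4917 had every siRNA library above every control library, and 4355 had every one below.

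**Figure D1:**
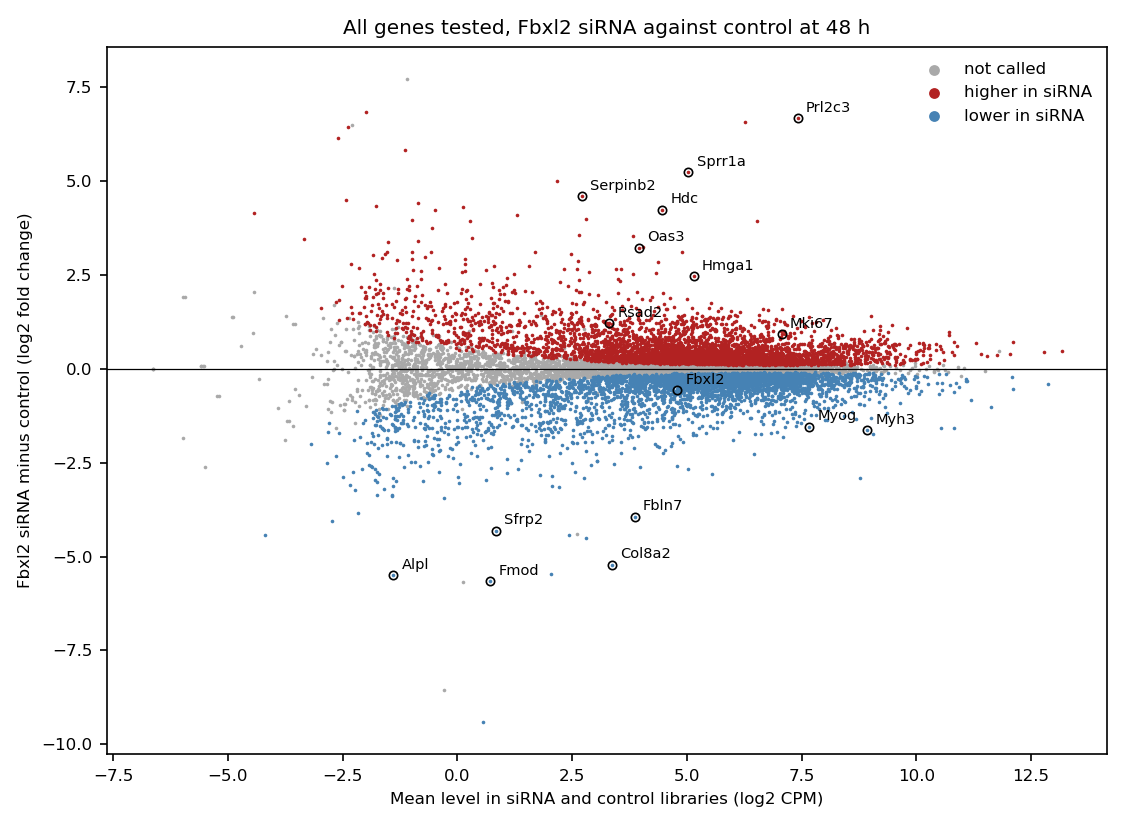
Each point is 1 of the 12736 genes tested, with its mean level in the 6 libraries (log2 CPM, horizontal) and its log2 fold change, Fbxl2 siRNA minus control (vertical). Red points were called higher, blue points lower and grey points neither. Circled genes carry their names, and Fbxl2 at -0.57 lies close to the bulk of the called genes while Prl2c3 at 6.67 and Fmod at -5.65 lie near the edges.

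The RNAs of the ubiquitin ligase itself moved little, and those of reported FBXL2 substrates moved in both directions. Of 27 tested FBXL2-related genes, 8 rose (29.6%, against 34.1% of all genes) and 15 fell (55.6%, against 29.8%), with a median log2 fold change of -0.14. Among ligase parts, Skp1a (the adaptor) and Cul1 (the scaffold) had log2 fold changes of -0.12 and -0.14, and Rbx1 (the RING subunit) 0.11. Fbxo3, an F-box protein reported to mark FBXL2 itself for degradation, fell by 0.14. Calls at this size were unstable: Rbx1, Cul1 and Fbxo3 missed the threshold, and Skp1a passed it, under some of the alternative settings. Sp1, the transcription factor named in the title of the study, stood at 178, 178 and 178 CPM in control and 177, 168 and 172 CPM in siRNA libraries, a log2 difference of -0.05 ± 0.045 (SE) that did not pass the test (adjusted p = 0.38).

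Both Aurkb and Foxm1, reported substrates that act in dividing cells, rose. Aurkb, the Aurora B kinase of chromosome segregation, was at 15.6, 20.1 and 19.3 CPM in control libraries and 43.7, 46.7 and 43.2 CPM in siRNA libraries, with a log2 change of 1.29 ± 0.075 (SE, adjusted p = 1.1e-11). Foxm1, the transcription factor of late cell cycle genes, went from 37.1, 41.5 and 43.8 to 76.4, 76.1 and 76.4 CPM (log2 0.91 ± 0.057, adjusted p = 2.7e-11). In neither gene did the groups overlap. The D cyclins split: Ccnd2 rose by 0.36 on the log2 scale, from 48.0 ± 0.851 to 61.7 ± 0.775 CPM (SD, n = 3), and Ccnd3, which differentiating muscle cells keep, fell by 0.43, from 281 ± 6.73 to 209 ± 12.7 CPM.

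The phosphoinositide 3-kinase subunit genes on the list fell. Pik3r1, the p85 alpha regulatory subunit, was at 112, 112 and 116 CPM in control and 78.6, 67.9 and 70.9 CPM in siRNA libraries (log2 -0.64 ± 0.055, adjusted p = 2.8e-09). Pik3r2, the p85 beta subunit reported as an FBXL2 substrate, had a log2 fold change of -0.35, and the catalytic subunits Pik3ca and Pik3cb -0.30 and -0.36. Akt1, a kinase downstream, showed 0.10 and was not called (adjusted p = 0.058). Pggt1b, the beta subunit of an enzyme that attaches lipid anchors to proteins, fell from 34.2 ± 1.03 to 23.1 ± 1.78 CPM (SD, n = 3, log2 -0.57).

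The TRAF adaptors, which carry signals from TNF receptors, did not move as one. Traf1 and Traf5 rose, by 1.19 and 0.71 on the log2 scale, Traf1 from a low level of 0.854 ± 0.0391 CPM to 1.96 ± 0.469 CPM (SD, n = 3). Traf4 had a log2 fold change of -0.50, Traf6 -0.23, Traf3 -0.20 and Traf2 -0.17, all called lower, though the call for Traf2 was lost when single libraries were left out. Of the other members, Calm3 (a calmodulin gene, calmodulin being reported to shield substrates from FBXL2) rose by 0.40. Pcyt1a, the phosphocholine enzyme CCT alpha and a reported substrate, fell by 0.18. Itpr3, a calcium channel of the endoplasmic reticulum and a reported substrate, showed -0.05 and was not called (adjusted p = 0.61).

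**Figure D2:**
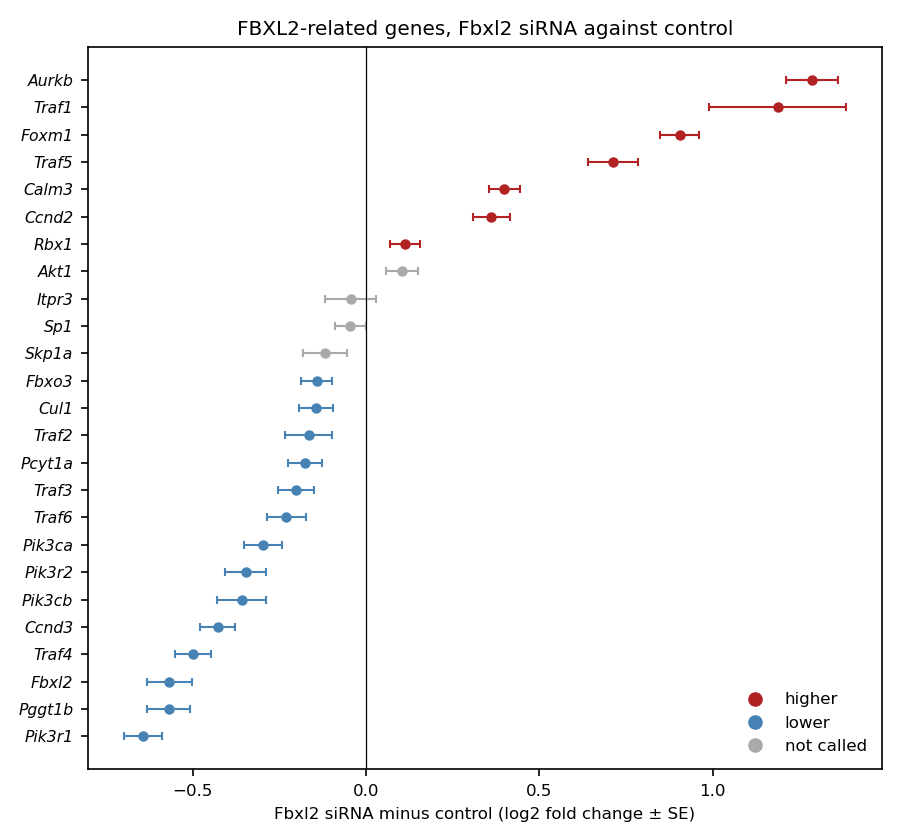
Points give the log2 fold change, Fbxl2 siRNA minus control, of tested FBXL2-related genes, with bars of 1 standard error; red, blue and grey mark genes called higher, lower and neither. Aurkb (1.29), Traf1 (1.19) and Foxm1 (0.91) stand at the upper end, and Pik3r1 (-0.64) below Fbxl2 (-0.57) at the lower end.

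The muscle programme was lower in the siRNA libraries, in regulators and most of all in contractile genes. Of 14 tested myogenic transcription factors, 12 fell and 1 rose (median -0.53), while Myf6 (0.85) was not called. Myog, the factor that drives terminal differentiation, stood at 328, 289.7 and 289.7 CPM in control libraries and 113, 77.3 and 123 CPM in siRNA libraries, with library B the lowest and no overlap between groups. Its log2 fold change was -1.54 ± 0.17 (SE, adjusted p = 3.3e-05), a 2.91-fold lower mean. Myod1, the factor that commits cells to muscle, went from 99.8, 98.6 and 93.2 to 56.1, 52.0 and 57.2 CPM (log2 -0.82 ± 0.05, adjusted p = 1.6e-11). Myf5, a factor of undifferentiated myoblasts, was the member that rose, from 44.5, 43.5 and 44.6 to 61.0, 64.2 and 59.4 CPM (log2 0.48 ± 0.053, adjusted p = 1.3e-07). Eya4, a coactivator of homeobox factors, fell by 1.15, and Pax7, which marks muscle stem cells, by 1.08. In bulk libraries, fewer cells that had differentiated and less of these RNAs in each cell cannot be told apart.

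Genes of fusion and adhesion were mostly lower too. Of 18 tested members, 15 fell and 3 were not called, with a median of -0.51. Mymk, the myomaker protein that lets myoblast membranes merge (listed as Tmem8c), was at 188, 170.0 and 161 CPM in control and 67.2, 46.6 and 73.2 CPM in siRNA libraries (log2 -1.47 ± 0.16, adjusted p = 3.6e-05). Its partner Mymx (listed as Gm7325) went from 24.2 ± 1.54 to 15.9 ± 2.25 CPM (SD, n = 3; log2 -0.61). The adhesion molecules Cdh2 and Ncam1 and the metalloprotease Adam12 fell by 0.90, 1.11 and 1.57 on the log2 scale.

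Genes of the sarcomere, the contractile unit of muscle, gave the lowest list medians in the comparison. For the thick filament, 20 of 21 tested genes fell (median -1.22, range -2.61 to -0.26), the exception being Mybpc1, which was not called. Myh3, embryonic myosin heavy chain, stood at 838, 691 and 681 CPM in control and 266, 164 and 284 CPM in siRNA libraries, 3.10-fold lower on average (log2 -1.63 ± 0.23, adjusted p = 2.7e-04). The siRNA libraries varied widely for Myh3, with B lowest, but all lay below the controls. Without siRNA library B the log2 fold change of Myh3 was -1.42, of Myog -1.36, of Tmem8c -1.30 and of Fbxl2 -0.51, each still called. The myosin heavy chain genes Myh7 and Myh6 had log2 fold changes of -2.61 and -2.43. Myom3, an M-band protein, and the kinase gene Mylk4 fell by 1.52 and 1.67.

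For the thin filament and Z-disc, 28 of 32 tested genes fell and 1 rose (median -1.18). Tpm1, a tropomyosin of striated muscle, was at 1791, 1767 and 1772 CPM in control and 1126, 1104 and 1096 CPM in siRNA libraries (log2 -0.68 ± 0.044, adjusted p = 4.0e-11). Tpm3, a tropomyosin that non-muscle cells also use, was the gene that rose, from 424 ± 2.42 to 621 ± 20.3 CPM (SD, n = 3; log2 0.55). Klhl40, which stabilises thin filament proteins, fell by 1.55. Desmin (Des), the intermediate filament of muscle, showed 0.09 and was not called.

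Other parts of the muscle cell followed, with exceptions. Of 20 excitation and calcium genes tested, 18 fell and 2 rose (median -0.89). The calcium release channel gene Ryr3 fell by 1.43 on the log2 scale, and the junctophilins Jph1 and Jph2 by 1.15 and 0.88. Asph (0.41) and the chloride channel gene Clcn1 (1.01) rose, only 1 of the pair without siRNA library B. Clcn1 was at a low level, 0.324 CPM in control and 0.651 CPM in siRNA libraries on average. Of 10 neuromuscular junction genes, 9 fell (median -0.69), among them the receptor subunit Chrnb1 (-0.55), its clustering protein Rapsn (-0.65) and Dok7 (-1.47), which activates the muscle kinase MuSK, while Musk showed -0.05 and was not called. Energy metabolism split: 9 of 17 tested members fell and 6 rose, or 2 when the libraries lettered C were left out. Ckm, muscle creatine kinase, went from 58.8, 50.2 and 52.8 to 32.1, 25.9 and 36.8 CPM (log2 -0.77 ± 0.11, adjusted p = 5.5e-05), whereas Ldha, lactate dehydrogenase A of glycolysis, went from 429, 436 and 441 to 892, 1077 and 983 CPM (log2 1.18 ± 0.061, adjusted p = 1.4e-12).

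A pair of promoters from sarcomere genes shows the letters CAGCTG, an E-box form that MYOD1 and MYOG bind. The motif is a palindrome and was searched in windows from 250 bases before to 50 bases after RefSeq start sites (GRCm38.p6). It was present in 8 of 21 windows of thick filament genes (38.1%) and 12 of 30 windows of thin filament and Z-disc genes (40.0%), against 5352 of all 32817 windows (16.3%). The pair below are the called members with the largest falls whose window held the motif, which is in capitals, among genes at 1 CPM or more (Mylk4 at chr13:32783915-32784214, minus strand, and Lmod2 at chr6:24597521-24597820, plus strand). A match describes the letters and is no evidence of binding.
Mylk4: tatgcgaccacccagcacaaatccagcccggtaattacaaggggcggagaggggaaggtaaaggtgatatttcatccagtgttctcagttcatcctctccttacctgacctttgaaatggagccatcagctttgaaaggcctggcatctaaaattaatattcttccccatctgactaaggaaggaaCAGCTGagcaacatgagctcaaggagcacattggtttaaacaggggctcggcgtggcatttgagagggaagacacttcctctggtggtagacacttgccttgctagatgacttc
Lmod2: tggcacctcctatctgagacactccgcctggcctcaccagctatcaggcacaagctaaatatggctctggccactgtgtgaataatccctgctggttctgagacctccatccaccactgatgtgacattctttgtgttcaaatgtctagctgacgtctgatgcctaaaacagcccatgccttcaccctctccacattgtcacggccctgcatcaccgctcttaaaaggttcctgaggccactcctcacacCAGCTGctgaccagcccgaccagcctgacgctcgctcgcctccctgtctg
Mylk4 stood at 12.3, 9.89 and 10.0 CPM in control and 3.09, 2.83 and 4.31 CPM in siRNA libraries. Lmod2, leiomodin 2 of the thin filament, stood at 23.01, 18.8 and 19.1 CPM and 6.32, 5.14 and 8.47 CPM (log2 -1.62 ± 0.16).

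Genes of cell division were higher in the siRNA libraries. All 30 mitosis genes tested rose (median 1.25, range 0.85 to 1.53). Ccnb1, the mitotic cyclin B1, stood at 48.2, 52.1 and 54.1 CPM in control and 139, 146 and 134 CPM in siRNA libraries, 2.72-fold higher on average (log2 1.44 ± 0.06, adjusted p = 5.9e-14). Mki67, the Ki-67 proliferation marker, was at 85.6, 92.0 and 99.2 CPM and 185, 173 and 168 CPM (log2 0.93 ± 0.061, adjusted p = 5.5e-11). The libraries of the groups did not overlap for either gene, and the siRNA libraries stayed close together. The spindle genes Kif20a and Prc1 rose by 1.28 and 1.31.

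Of 36 DNA replication genes, 34 rose (median 0.75), and Rfc3 (-0.10) and Rrm1 (-0.04) were not called. The helicase subunit gene Mcm3 went from 44.3, 43.6 and 46.4 to 76.4, 74.2 and 75.8 CPM (log2 0.75 ± 0.047, adjusted p = 2.9e-11), Uhrf1, which maintains DNA methylation, rose by 1.10, and the DNA ligase gene Lig1 by 0.86. Regulators upstream of these split, 9 of 16 tested being higher and 5 lower. Ccnd1, cyclin D1, went from 59.3, 66.1 and 63.3 to 108, 119 and 116 CPM (log2 0.86 ± 0.059, adjusted p = 8.4e-11). Cdkn1a, the p21 inhibitor that holds myotubes out of the cycle, went from 544, 513 and 510.5 to 339.6, 314 and 344 CPM (log2 -0.65 ± 0.047, adjusted p = 2.1e-10). Cdkn1c (p57) and the retinoblastoma gene Rb1 had log2 fold changes of -1.83 and -0.77, and Cdkn2d (p19) rose by 1.04.

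The cell cycle homology region, TTTGAA on either strand, is an element that the DREAM complex and the FOXM1-MYB complex read in promoters of late cell cycle genes. It was present in 20 of 27 promoter windows of the mitosis genes (74.1%), against 17.9% of all windows and 11.9% of windows of the genes tested. Among DNA replication genes, 4 of 34 windows held it (11.8%). The promoters of the called mitosis genes with the largest rises whose window held the motif are printed 5′ to 3′ with it in capitals, TTCAAA being its reverse complement (Ube2c at chr2:164769679-164769978, plus strand, and Cdc20 at chr4:118437294-118437593, minus strand).
Ube2c: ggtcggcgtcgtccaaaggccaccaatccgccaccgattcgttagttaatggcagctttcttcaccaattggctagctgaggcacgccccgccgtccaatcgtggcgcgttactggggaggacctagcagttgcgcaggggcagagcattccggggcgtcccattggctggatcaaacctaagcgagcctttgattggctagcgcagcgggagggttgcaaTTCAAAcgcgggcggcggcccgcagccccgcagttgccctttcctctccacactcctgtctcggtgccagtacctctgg
Cdc20: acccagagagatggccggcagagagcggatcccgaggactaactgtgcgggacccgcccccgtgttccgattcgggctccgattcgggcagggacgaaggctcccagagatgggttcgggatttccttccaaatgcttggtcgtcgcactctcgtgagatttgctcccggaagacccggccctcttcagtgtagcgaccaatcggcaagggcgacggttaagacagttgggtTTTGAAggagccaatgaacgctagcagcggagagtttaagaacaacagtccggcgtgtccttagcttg
Ube2c, the ubiquitin-conjugating enzyme of the anaphase-promoting complex, stood at 29.0, 31.5 and 34.9 CPM in control and 85.4, 97.6 and 92.7 CPM in siRNA libraries. Cdc20, the activator of that complex, stood at 29.7, 35.1 and 34.3 CPM and 84.8, 89.9 and 87.0 CPM. Their log2 fold changes were 1.53 ± 0.067 and 1.40 ± 0.064 (SE).

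**Figure D3:**
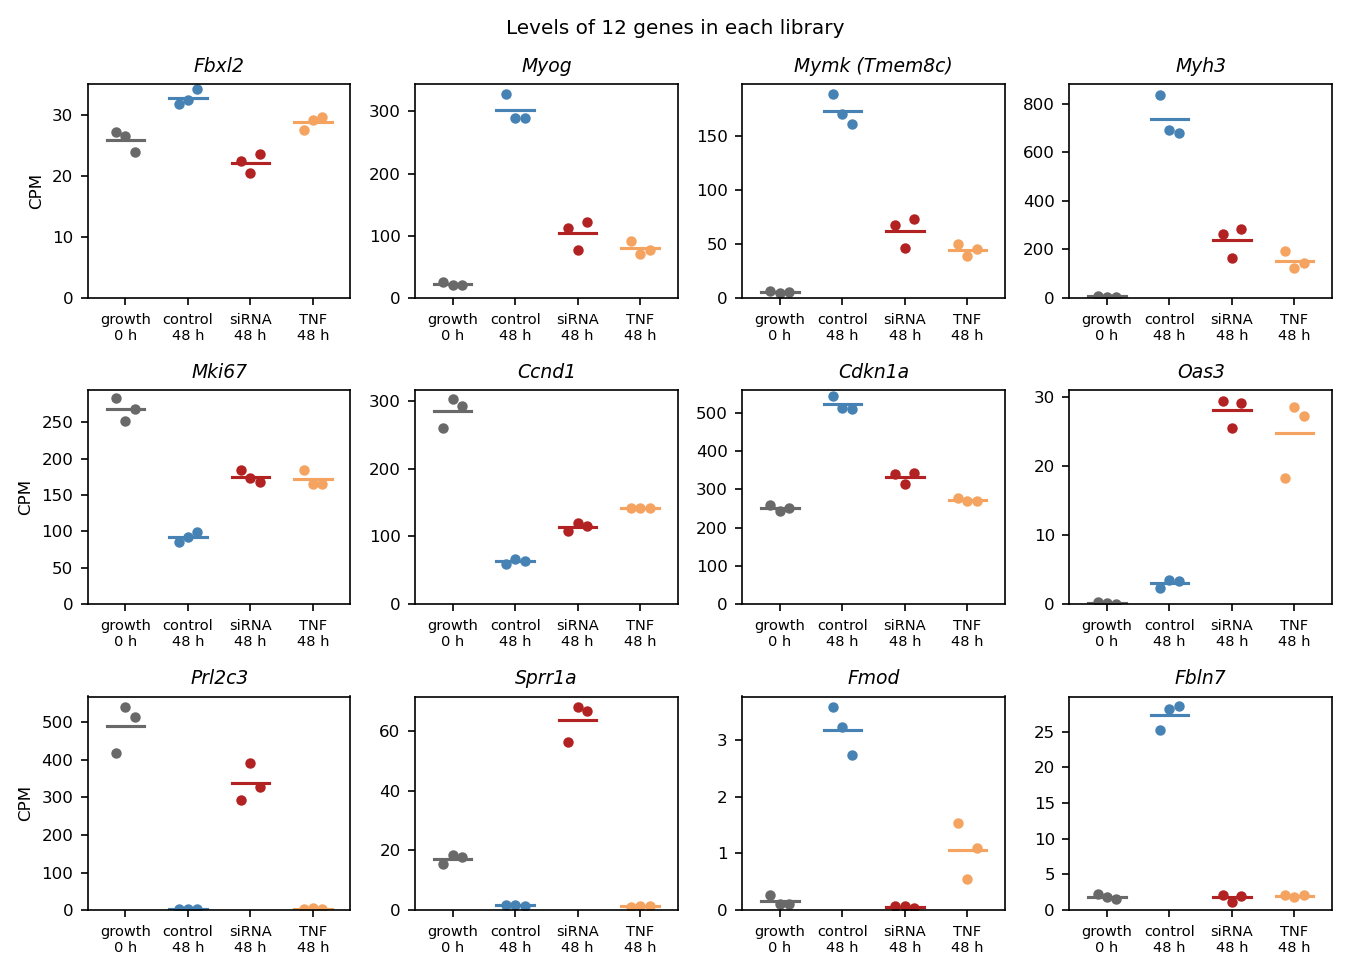
Points are single libraries and bars are means of 3, in CPM on linear axes from 0, for proliferating cells at 0 h and for control, Fbxl2 siRNA and TNF cells at 48 h. The siRNA libraries lie below the control libraries for Fbxl2, Myog, Mymk, Myh3, Cdkn1a, Fmod and Fbln7 and above them for Mki67, Ccnd1, Oas3, Prl2c3 and Sprr1a.

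Interferon-stimulated genes were higher in the siRNA libraries. These genes are switched on by the STAT and IRF factors when cells sense viral or other foreign nucleic acid, or interferon itself. Of 50 tested, 48 rose (median 0.85), and Ifit2 (0.19) and Gbp7 (0.22) were not called. Oas3 and Oasl1, of the family that senses double-stranded RNA, changed most. Oas3 stood at 2.28, 3.52 and 3.27 CPM in control and 29.4, 25.5 and 29.1 CPM in siRNA libraries, 9.35-fold higher on average (log2 3.22 ± 0.22, adjusted p = 2.7e-07). Oasl1 stood at 0.240, 0.139 and 0.216 CPM and 1.95, 2.38 and 2.46 CPM (log2 3.47 ± 0.28). Neither gene's groups overlapped.

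Of 16 tested genes for sensing foreign nucleic acid and its signalling, 13 were higher (median 0.39). The count is not separate from the last, since Ddx58, Ifih1, Dhx58, Eif2ak2, Irf7 and Zbp1 are on both lists. Zbp1, a sensor of Z-form nucleic acid, went from 12.5, 13.7 and 15.5 to 51.6, 51.3 and 48.8 CPM (log2 1.87 ± 0.093, adjusted p = 2.4e-11). Ifih1, the double-stranded RNA sensor MDA5, went from 26.6, 30.2 and 27.9 to 57.9, 54.6 and 55.9 CPM (log2 0.99 ± 0.064, adjusted p = 4.0e-11). Tmem173, the STING adaptor, rose by 0.92, while Mavs (0.01) and Irf3 (0.06) were not called. The control libraries were not stated to have received siRNA, and the part of transfection in these values was not tested.

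Genes of the RNA interference machinery, through which siRNA acts, were mostly lower. Of 13 tested, 10 fell and 1 rose, or 2 without the libraries lettered A (median -0.27). The Argonaute genes Ago1 and Ago4 fell by 0.42 and 0.98 on the log2 scale and Tnrc6c, whose protein binds Argonautes, by 0.72. Tarbp2, a partner of Dicer, was the gene that rose (0.39).

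Antigen presentation by MHC class I, which interferons induce, rose in 21 of 22 tested genes (median 0.65), with Calr (-0.02) not called. Tapbp, tapasin of the peptide loading complex, was at 120.5, 133 and 129 CPM in control and 296, 296 and 295 CPM in siRNA libraries (log2 1.22 ± 0.046, adjusted p = 2.0e-14). The proteasome activator Psme2 rose by 0.88 and the class I gene H2-T22 by 0.78, although reads of H2 genes can be split among similar copies. Targets of NF-kB, the factor that TNF activates, went both ways, with shares near those of all genes. Of 36 tested, 12 rose (33.3%, against 34.1% of all genes) and 10 fell (27.8%, against 29.8%), with a median of 0.00. The counts include calls near the floor. Icam1, called higher, had no count in control and 0.0731 CPM in siRNA libraries. Saa3, called lower, went from 0.223 to 0.0366 CPM. The chemokine gene Ccl2 rose from 7.88, 9.47 and 9.78 to 21.7, 20.9 and 23.4 CPM, against 990.3 ± 22.2 CPM in TNF libraries (SD, n = 3). Nfkbia (-0.08), the feedback inhibitor, was not called, and the chemokine gene Cx3cl1 fell by 0.99.

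The letters GAAA, any 2 bases and GAAA again, the core of the element that interferon-activated factors bind, were searched on both strands. They were present in 21 of 43 promoter windows of the interferon-stimulated genes (48.8%), which covered 36 of the 50 genes, against 3.43% of all windows. The windows of the called members with the largest rises that held the letters are printed with them in capitals. In Oas1g 2 matches overlap. The windows are Oas3 at chr5:120777610-120777909, minus strand, and Oas1g at chr5:120887564-120887863, minus strand.
Oas3: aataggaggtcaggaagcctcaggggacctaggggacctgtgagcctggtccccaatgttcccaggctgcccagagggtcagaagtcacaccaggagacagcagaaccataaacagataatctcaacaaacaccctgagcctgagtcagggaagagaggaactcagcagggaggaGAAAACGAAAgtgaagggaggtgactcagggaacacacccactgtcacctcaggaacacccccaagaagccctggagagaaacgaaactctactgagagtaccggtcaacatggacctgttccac
Oas1g: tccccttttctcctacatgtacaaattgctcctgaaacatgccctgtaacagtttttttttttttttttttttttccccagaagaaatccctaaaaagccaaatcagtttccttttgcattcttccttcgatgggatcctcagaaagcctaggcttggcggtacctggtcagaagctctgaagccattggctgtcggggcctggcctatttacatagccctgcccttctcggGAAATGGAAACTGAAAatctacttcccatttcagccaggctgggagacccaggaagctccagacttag
Oas1g stood at 1.35, 2.96 and 2.63 CPM in control and 10.7, 9.70 and 8.74 CPM in siRNA libraries (log2 2.10 ± 0.26). Oas1 genes are near copies of each other, so counts of single members are uncertain.

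Matrix genes included some of the steepest falls. Of 21 collagens, 12 fell and 6 rose (median -0.34). Col8a2 stood at 21.3, 19.5 and 19.4 CPM in control and 0.675, 0.306 and 0.643 CPM in siRNA libraries, 37.2-fold lower on average (log2 -5.22 ± 0.17, adjusted p = 6.1e-15), and Col11a1 fell by 1.60. Col18a1, a basement membrane collagen, rose by 0.80. Of 45 other matrix genes, 26 fell and 12 rose (median -0.31). Fmod, the small proteoglycan fibromodulin, stood at 3.60, 3.24 and 2.73 CPM and 0.0710, 0.0681 and 0.0378 CPM, the latter from 5 counts in all. Fbln7, a fibulin of the matrix, went from 25.3, 28.1 and 28.6 to 2.17, 1.19 and 2.00 CPM (log2 -3.94 ± 0.13, adjusted p = 3.3e-15), and Thbs1, thrombospondin 1, from 2754, 2689 and 2659 to 968, 841 and 891 CPM (log2 -1.59 ± 0.056, adjusted p = 7.2e-15). Loxl2, which cross-links collagen, and the collagenase gene Mmp13 rose by 1.08 and 1.51.

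Most listed targets of SRF and YAP, factors that respond to the cytoskeleton, and most listed genes of TGF-beta family signalling were lower. Of 20 targets of SRF and YAP, 15 fell and 3 rose (median -0.40). Amotl2, a YAP target, went from 215, 216 and 202 to 83.3, 72.8 and 80.2 CPM (log2 -1.42 ± 0.054, adjusted p = 2.1e-14), and Tagln, an actin-binding protein, and Cyr61, a matrix-bound signalling protein, fell by 1.27 and 0.95. In the TGF-beta, BMP and Id list, made up of ligands, receptors, antagonists, feedback genes and targets, 20 of 24 tested genes fell and 2 rose (median -0.61). Bmp4 was at 24.5, 23.6 and 22.3 CPM in control and 5.75, 5.28 and 5.41 CPM in siRNA libraries (log2 -2.10 ± 0.088, adjusted p = 7.3e-14), Inhbb, an activin subunit, fell by 1.17, and Id3, an inhibitor of MYOD1-type factors, by 1.70. The pair that rose were Tgfbi, a matrix protein induced by TGF-beta (1.74), and the ligand gene Gdf15 (1.34).

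Repressors of myogenesis went both ways, with 4 of 21 higher and 12 lower (median -0.27). The Id genes of this list are also on the TGF-beta, BMP and Id list, and its Hes and Hey genes on the Notch list. Msc (musculin), which competes with MYOD1 for E-boxes, was the exception in size, at 4.34, 4.01 and 4.24 CPM in control and 23.2, 24.9 and 24.9 CPM in siRNA libraries (log2 2.53 ± 0.088, adjusted p = 6.1e-15), while Bhlhe41, a repressor of the same protein class, fell by 1.21. In the Notch pathway 6 of 13 tested genes fell and 1 rose, with the ligand gene Jag1, the Notch-modifying enzyme gene Lfng and Hes6 at -1.34, -0.88 and -0.72. The IGF system, which drives muscle growth, had 10 of 14 members lower and 3 higher (median -0.61). Irs1, the adaptor of the insulin and IGF1 receptors, fell by 0.66, Igfbp2 by 0.75, and Igfbp6 rose by 0.60. Of 26 immediate early and ERK feedback genes, 10 rose and 12 fell. Fosl1, an AP-1 subunit, went from 6.98, 7.70 and 6.40 to 22.9, 27.9 and 25.3 CPM (log2 1.85 ± 0.092, adjusted p = 8.7e-13), and the early transcription factor genes Egr2 and Junb fell by 1.60 and 0.77.

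**Figure D4:**
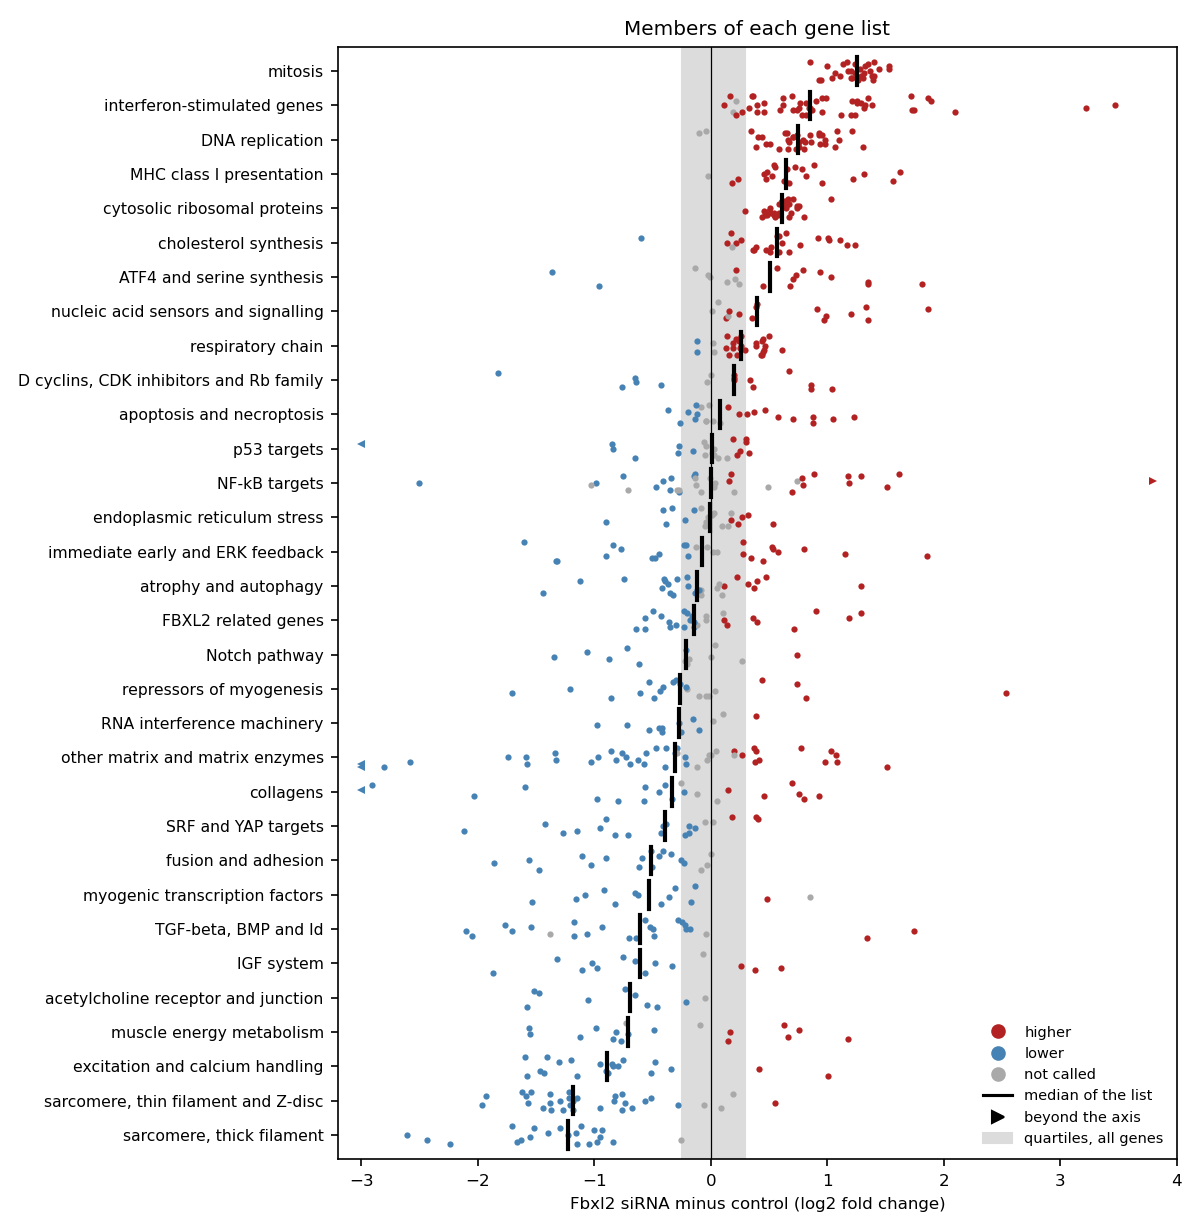
Points are the tested members of each gene list with 10 or more, by log2 fold change, Fbxl2 siRNA minus control; red, blue and grey mark genes called higher, lower and neither, black bars are list medians and the grey band spans the quartiles of all genes tested (-0.25 to 0.29). The mitosis list lies wholly to the right of 0, and the called thick filament genes all lie left of the band.

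Ribosomal protein, respiratory chain and cholesterol synthesis genes were mostly higher. All 30 tested members of the ribosomal protein list rose (median 0.61). Rps24 went from 381, 382 and 396 to 744, 871 and 758 CPM (log2 1.03 ± 0.063, adjusted p = 1.5e-11), and Rps2 rose by 0.76. Of 28 respiratory chain genes, 24 rose and 2 fell (median 0.26). Sdhb of complex II, Cox5b of complex IV and Atp5b of the ATP synthase rose by 0.61, 0.46 and 0.44. The pair that fell lost the call without control library A, siRNA library C or all libraries lettered A or C. Cholesterol synthesis rose in 23 of 25 genes (median 0.57). Fdps, which makes farnesyl diphosphate, went from 135, 146 and 152 to 286, 307 and 278 CPM (log2 1.01 ± 0.054, adjusted p = 2.8e-12), and Pmvk, of the mevalonate pathway, and Insig1, its sterol feedback gene, rose by 1.24 and 1.17. Ebp, a sterol isomerase gene, was the member that fell (-0.60).

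The fold change also went with transcript length. Among the 12346 tested genes with a GENCODE M21 transcript, the fifth with the shortest transcripts (median 1321 bases) had a median log2 fold change of 0.23, with 52.1% of genes called higher and 13.4% lower. The fifth with the longest (median 6708 bases) had a median of -0.17, with 18.6% called higher and 52.1% lower. Measured from the median of all genes in the same class of length, the list medians were 0.40 for ribosomal proteins, 0.05 for the respiratory chain, -0.16 for collagens (from -0.34), -0.09 for FBXL2-related genes (from -0.14), 0.55 for cholesterol synthesis, 1.21 for mitosis, 0.87 for interferon-stimulated genes, -1.34 for the thick filament and -1.27 for the thin filament and Z-disc. The RNA interference list, with a median transcript of 7227 bases, had -0.21 by this measure (from -0.27). MHC class I had 0.47 (from 0.65) and ATF4 and serine synthesis 0.35 (from 0.51). The TGF-beta, BMP and Id list moved the other way, to -0.72 (from -0.61). RNA integrity numbers were between 9.7 and 10.0 over the series, per the labels, and the part of transcript length in these results was not tested.

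Stress and death lists gave no common direction, although the ATF4 and serine synthesis list was mostly higher. In the ATF4 and serine synthesis list, 12 of 20 genes rose and 2 fell (median 0.51), with the serine synthesis enzyme genes Psat1 and Psph and the cystine transporter gene Slc7a11 at 0.94, 0.79 and 0.71. Endoplasmic reticulum stress genes (5 up and 6 down of 20) and p53 targets (6 up and 7 down of 21) had medians of -0.01 and 0.01, and Herpud1, Hyou1 and Sel1l, which serve folding or disposal of proteins in that compartment, fell by 0.90, 0.38 and 0.41. Of the p53 targets, Trp53inp1 and the death receptor gene Fas fell by 0.84 and 0.85. Of 23 apoptosis and necroptosis genes, 11 rose and 6 fell, the latter 3 without control library A, 3 without siRNA library C and 2 without the libraries lettered C. Casp4, an inflammatory caspase, went from 16.4, 14.9 and 15.5 to 34.5, 37.2 and 38.3 CPM (log2 1.23 ± 0.066, adjusted p = 2.7e-12), and Mlkl, which executes necroptosis, and Bak1 rose by 0.88 and 0.58. In the atrophy and autophagy list, 15 of 27 genes fell and 7 rose. Foxo1, which drives atrophy genes, fell by 1.13, and the calpain gene Capn2 and calpastatin (Cast) rose by 0.39 and 0.47.

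Among genes at 1 CPM or more with no overlap, predicted genes aside, the largest rises were in the proliferins Prl2c3 and Prl2c2. They belong to a family of prolactin-related hormones first found in growing fibroblasts. Prl2c3 (chr13:12790816-12800079, minus strand, GRCm38) stood at 3.18, 3.20 and 3.56 CPM in control and 292, 392 and 328 CPM in siRNA libraries, 102-fold higher on average (log2 6.67 ± 0.20, adjusted p = 9.0e-10). Prl2c2 and Prl2c5 rose by 6.56 and 5.01. Prl2c1, another family member, had no count in control and 41 counts in siRNA libraries, which makes it at least 4.83-fold higher if 3 counts are taken as the floor of each library. Their longest annotated transcripts are near copies, Prl2c2 and Prl2c3 with 99.5% identical bases and Prl2c3 and Prl2c5 with 96.4%, so the split between them is uncertain and the sum is the safer value. Summed over the 3 genes, the level was 5.17 ± 0.24 CPM in control, 497.8 ± 81.7 CPM in siRNA, 674 ± 86.8 CPM in proliferating and 5.86 ± 0.81 CPM in TNF libraries (SD, n = 3).

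Sprr1a, a small proline-rich protein of the cornified envelope and of injured neurons, had the smallest p of all rises. It stood at 1.77, 1.81 and 1.44 CPM in control and 56.3, 68.2 and 66.6 CPM in siRNA libraries, 37.9-fold higher (log2 5.24 ± 0.11, adjusted p = 4.1e-18), and at 17.2 ± 1.46 CPM in proliferating libraries (SD, n = 3). Hdc, which makes histamine, went from 2.34, 2.16 and 2.09 to 38.5, 45.8 and 40.7 CPM (log2 4.24 ± 0.11, adjusted p = 8.3e-17), and Hmga1, a chromatin protein of growing cells, from 10.97, 11.2 and 10.3 to 57.7, 62.6 and 59.8 CPM (log2 2.47 ± 0.063, adjusted p = 8.3e-17). In none of these 3 genes did the groups overlap. Serpinb2, a plasminogen activator inhibitor, went from 0.513 ± 0.0399 to 12.5 ± 2.08 CPM (SD, n = 3). Hmgcll1, Calcb and the tryptase gene Tpsab1 reached 2.04 ± 0.601, 1.33 ± 0.620 and 1.04 ± 0.222 CPM (SD, n = 3) from 9, 6 and 4 counts over all control libraries, so the size of their rise is uncertain.

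Among the falls, Angptl7, a secreted angiopoietin-like protein, stood at 2.79, 3.20 and 2.77 CPM in control libraries and had no count in any siRNA library, at least 27.2-fold lower against a floor of 3 counts per library. Antxr1, a receptor that binds collagen, went from 190.1, 193 and 185 to 64.0, 53.1 and 59.7 CPM (log2 -1.68 ± 0.055, adjusted p = 3.3e-15). The groups did not overlap for either gene. Nkd2 and Sfrp2, which dampen Wnt signals, had log2 fold changes of -5.46 and -4.31. Col23a1, the chemokine scavenger gene Ackr4, Tspan8 and Otoa followed with -4.51, -4.42, -3.15 and -3.45.

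Marker lists were read for cells other than myoblasts. Defining myoblast genes were found: Myod1, Myf5 and Myog had counts in every one of the 6 libraries. Macrophage markers, of which Lyz2 and Cd68 fell among 3 tested, summed to 2.40 to 3.96 CPM in control and 1.85 to 1.91 CPM in siRNA libraries, with Adgre1 and Tyrobp at 0 throughout, and endothelial markers to 2.58 to 2.91 and 1.80 to 2.61 CPM. Smooth muscle markers, which myoblasts also express, summed to 4845 to 5070.0 CPM in control and 3253 to 3410.0 CPM in siRNA libraries, and 6 of 8 tested fell. Fibroblast markers summed to 8813 to 8945 and 9662 to 10317 CPM, with 2 of 7 higher and 4 lower. Col3a1, which rose, made up most of that sum, at a mean of 5964 CPM in control and 8190 CPM in siRNA libraries. Among the 4 that fell, Col1a1 went from 1813 to 1215 CPM and Postn from 267 to 106 CPM. Osteoblast and cartilage markers summed to 1228 to 1277 and 2249 to 2435 CPM, with 2 of 4 tested higher and 2 lower. Spp1 (osteopontin) made up most of the sum, at 1118, 1113 and 1168 CPM in control and 2126, 2319.6 and 2259 CPM in siRNA libraries. The lowest log2 fold change on that list was -5.49, in a gene called lower. That gene did not meet the rule of at least 1 CPM and no overlap used for the largest falls. Of 10 tested satellite cell markers 2 rose and 3 fell, and of 5 adipocyte markers 1 rose and 1 fell. Calls among these few markers shifted by 1 or 2 genes when single libraries or letters were left out or DESeq2 was used. The part of a changed cell mixture in the results above was not tested.

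The siRNA libraries were also set against the other groups of the series, and the comparisons share the siRNA libraries. Against proliferating myoblasts, 3940 genes were higher (30.9%) and 3959 lower (31.1%). Against TNF, 3891 were higher (30.6%) and 3814 lower (29.9%). Thick filament genes had a median of 3.97 against proliferating cells (20 of 21 higher) and 0.81 against TNF (14 higher). Myh3, for one, averaged 6.32 CPM in proliferating, 153 CPM in TNF, 238 CPM in siRNA and 737 CPM in control libraries. For mitosis genes the medians were -0.68 against proliferating cells, where all 30 were lower, and 0.38 against TNF, where 26 were higher. Mki67 averaged 268 CPM in proliferating, 175 in siRNA, 171 in TNF and 92.3 in control libraries, and the difference between siRNA and TNF was not called (log2 0.03, adjusted p = 0.65).

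Interferon-stimulated and MHC class I genes were mostly below TNF and above proliferating cells. Interferon-stimulated genes had a median of -0.63 against TNF, with 42 of 50 lower and 1 higher, and 4.27 against proliferating cells, with all 50 higher. Their median against control was 0.85, so the 4.27 also spans the difference between differentiating and growing cells. For MHC class I genes the medians against TNF and proliferating cells were -0.98 and 1.83. For NF-kB targets they were -2.17 (34 of 36 lower than with TNF) and 0.42 (18 higher and 8 lower than in proliferating cells). Some genes of the largest changes stood near their level in proliferating cells: Fbln7 averaged 1.89 CPM there, 1.79 in siRNA, 1.98 in TNF and 27.3 in control libraries, and the siRNA level was not called different from the proliferating (adjusted p = 0.69) or the TNF level (adjusted p = 0.48). Thbs1 averaged 879 CPM in proliferating and 899.6 in siRNA libraries but 2671 in TNF and 2701 in control libraries.

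**Figure D5:**
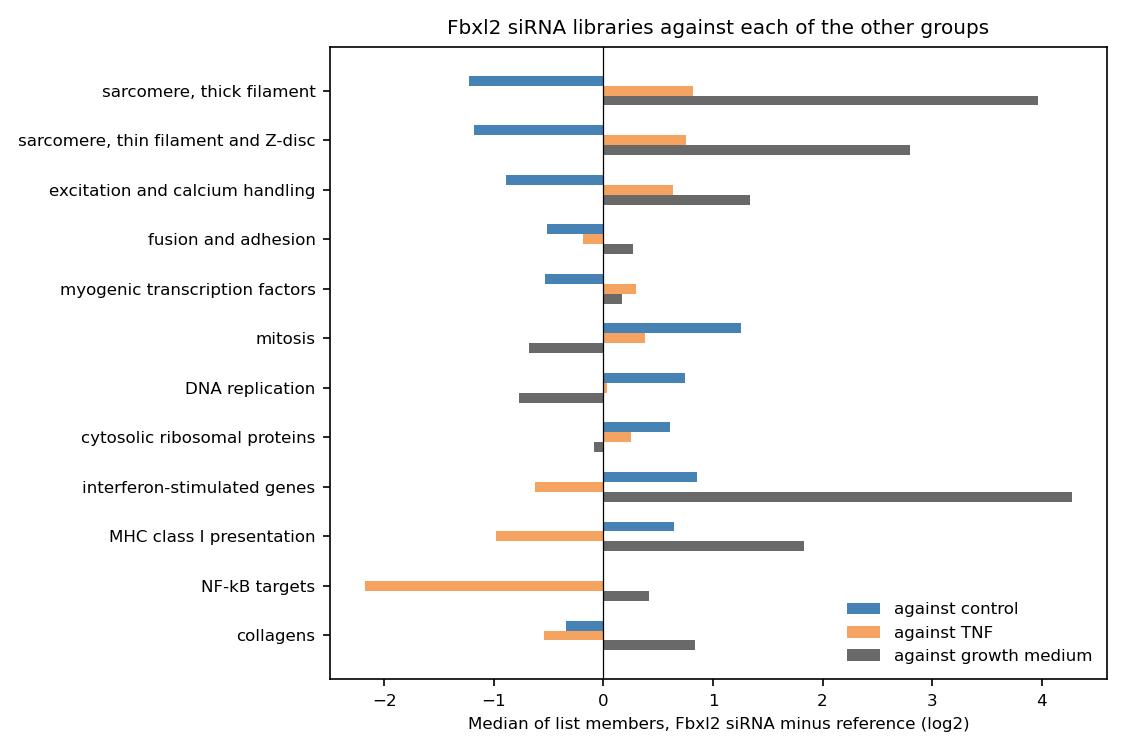
Bars give the median log2 difference of the tested members of 12 gene lists, Fbxl2 siRNA minus control (blue), TNF (orange) or proliferating cells in growth medium (grey). Sarcomere lists lie below control and above both other groups, and mitosis genes above control and TNF and below proliferating cells; the blue bar of NF-kB targets is 0.00.

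The authors' deposited table of the same comparison lists 13948 genes and calls 3890 higher and 3866 lower at an adjusted p under 0.05, with 541 given no adjusted p. Of the genes called in the authors' deposited table, 7477 were also called here, all with the same sign. The authors' deposited table gives log2 fold changes of -0.59 for Fbxl2, -1.56 for Myog and 6.65 for Prl2c3.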

How the data were processed

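RNA of 12 C2C12 libraries was measured by sequencing, 3 for each of 4 groups taken from the sample labels. The deposited values are raw counts per gene symbol and library, made by the authors. The submitters' processing notes name the mm10 genome, CASAVA and DESeq2. No source read here gives the counting step, its strand setting or versions, so overlapping and antisense genes cannot be told apart. The authors' deposited table of this comparison holds counts divided by a size factor (a signal, not coverage), a log2 fold change and p-values per gene. In it each log2 fold change has the sign of siRNA minus control by its own expression columns.

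From the counts, edgeR 4.0.16 (limma 3.58.1, R 4.3.3) fitted the quasi-likelihood model with robust dispersion to all 12 libraries as 4 group means, after TMM scaling and filterByExpr with a minimum count of 10. A gene was called at a Benjamini-Hochberg adjusted p under 0.05 over all 12736 genes tested. CPM values are counts per 1000000 of the TMM-scaled library size. Depth allowed a floor of 3 counts per library, and intervals cover the spread between libraries. Alternatives were relative log expression scaling, no filter, DESeq2 1.42.0, a fit of the 6 libraries, a replicate block and leaving out libraries. The scripts were tested on simulated data.

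The gene lists were chosen with earlier results of these data known. Of 823 distinct listed genes, 759 were tested, 60 had too few counts and 4 were not found in the table. Some genes, such as Aurkb, Ccnd2 and Mmp13, are on more than a single list, so the list counts are not all separate. Genes were named by rule: a fixed set of Fbxl2, muscle and cell cycle genes, the 10 largest rises and falls with at least 1 CPM and no overlap, the 3 smallest p-values each way and in each list, and the FBXL2-related and proliferin genes. Predicted genes, with symbols of Gm and digits or ending in Rik, were left out of the largest rises and falls. Some genes that meet the rule, or are counted in a list, are not reported here. The genes named at the ends of a list's range or as its exceptions, Oas3, Oasl1, the genes with printed promoters and those in the closing observations were chosen after their values were seen. Gene positions are from GENCODE M21 (GRCm38) and promoter sequences from RefSeq.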

Additional observations from a re-analysis of the deposited data

How the results depend on the processing

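The counts of genes called kept within 1.5 times of their value under all 14 alternatives: 3361 to 4386 higher, 3089 to 4252 lower, 573 to 694 higher by 2-fold or more and 584 to 769 lower by 2-fold or more. With the replicate letter as a block, 4386 genes were higher and 3853 lower, 637 and 646 of them by 2-fold or more. Deviations of control and siRNA libraries of the same letter correlated at -0.0098, -0.036 and -0.091, so the letters were not taken to pair them. Of the genes called under each alternative, those also called in the fit reported ran from 6383 of 6450 (without the libraries lettered C, which leaves 2 a group) to 8096 of 8239 (block), all with the same sign. The scaling by relative log expression moved the median of all genes from 0.03 to -0.0036.

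Over 144 named genes and 14 alternatives, 1979 values kept direction and call, 28 lost the call and 8 gained it. Itpr3 (-0.05) changed sign without replicate B, to 0.0046, and ran from -0.085 to that value when libraries were left out; neither value passed the test. The lost and gained calls included Rbx1, Cul1, Fbxo3, Traf2, Skp1a and Akt1, whose changes are small. For these the cause was not tested. Of the counts of list members, 25 of 1120 moved by more than 1.5 times, each a count of 6 or fewer; satellite cell markers, for one, had 5 members lower by DESeq2 and 3 in the fit reported, and macrophage markers 0 to 2 when single libraries or letters were left out.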

Other observations

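A few further gene groups stood out among the largest changes, and their lists were written after values of some members were seen, so their counts describe and do not test. Of 69 Wnt pathway genes 48 were tested, of which 38 fell and 6 rose, with a median log2 fold change of -1.05 against 0.03 for all genes tested. Axin2, a feedback gene of the pathway, stood at 7.61, 7.38 and 6.94 CPM in control and 0.888, 1.12 and 1.02 CPM in siRNA libraries. Its log2 fold change was -2.85 ± 0.13 (SE, adjusted p = 3.0e-13). Porcn, which attaches the lipid that Wnt ligands need, the receptor gene Fzd1 and Lef1, a transcription factor of the pathway, fell by 1.94, 1.56 and 1.12 on the log2 scale. Members of the pathway that rose included the inhibitor Dkk2, from 3.13 ± 0.327 to 29.6 ± 2.24 CPM, and the ligand Wnt7b, from 3.87 ± 0.683 to 19.5 ± 2.22 CPM (SD, n = 3).

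Genes best known from axons rose, 7 of 8 tested on a list of 10 (median 1.54). Nefl, the light neurofilament chain, stood at 10.3, 11.3 and 12.2 CPM in control and 149, 199.9 and 172 CPM in siRNA libraries (log2 3.95 ± 0.15, adjusted p = 1.9e-09), and at 244 ± 27.0 CPM in proliferating libraries (SD, n = 3). Nefm and Gap43 rose by 3.11 and 1.65. Of 20 epithelial genes 14 were tested and 12 rose (median 2.71), with the keratin gene Krt19 at 3.20 ± 0.275 CPM in control and 20.3 ± 3.96 CPM in siRNA libraries and the growth factor gene Areg at 1.65 ± 0.341 and 10.5 ± 1.53 CPM (SD, n = 3).

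Some genes with large differences in means, picked for that, varied widely between libraries of a group and did not pass the test. Rps12, a ribosomal protein gene outside the list above, stood at 9.23, 24.98 and 0.575 CPM in control and 0.675, 0.0340 and 0.983 CPM in siRNA libraries (adjusted p = 0.061), and Gvin1, an interferon-inducible GTPase gene, had no count in control libraries and stood at 1.17, 0 and 1.59 CPM in siRNA libraries (adjusted p = 0.16).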
